A study of Mus musculus with 6 samples.

Results

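Interferon-stimulated and MHC class I genes were examined in left ventricular myocardium as a set of 35 genes out of the 54532 in the expression table. The members were a fixed list of gene symbols, grouped by what the genes are known to do, with no threshold on their measured values, though the list was drawn up with earlier results of these data known. They fell into 22 genes of the type I interferon response, 7 GTPases induced by interferon gamma, and 6 genes of class I antigen presentation. All 35 were found, each as 1 row, and all 35 were among the 14225 genes tested.

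RNA had been sequenced from the hearts of 3 HFpEF mice (heart failure with preserved ejection fraction) and 3 control (Chow) mice, with 1 library per mouse and distinct mice in each group. HFpEF mice were male C57BL/6 mice that ate a high-fat diet with 60% of kcal from fat and drank L-NAME, an inhibitor of nitric oxide synthases, at 0.5 g/L for 12 weeks. Chow mice were male C57BL/6 mice on standard chow and plain drinking water over the same time, and all mice had been 6 to 8 weeks old when obtained. Diet and L-NAME were always given together, so what belonged to each cannot be told apart, and females were not studied.

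Interferons are cytokines that cells release when they sense foreign or misplaced nucleic acid. Type I interferons signal through the receptor chains Ifnar1 and Ifnar2, the kinases Jak1 and Tyk2, and a complex with Stat2 and Irf9 that binds the interferon-stimulated response element (ISRE) in front of antiviral genes. Interferon gamma, made mainly by T and NK cells, signals through Ifngr1 and Ifngr2, and acts on genes through the gamma-activated site (GAS). Almost every nucleated cell carries MHC class I: the proteasome cuts proteins, Tap1 and Tap2 carry the peptides into the endoplasmic reticulum, and a heavy chain such as H2-K1 or H2-D1 pairs with B2m to show them at the surface. In the heart these genes are active at a low resting level in macrophages, endothelial cells and fibroblasts as well as in cardiomyocytes.

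FPKM is a level per exon length and sequencing depth, and the deposited values carried a further scaling between libraries. The depth they imply was 11734336 to 14239712 in Chow and 13847565 to 19316914 in HFpEF, whereas recovered reads numbered 13076772 to 15574914 per Chow library and 13461735 to 16027084 per HFpEF library. The label heart held in all 6 libraries: Myh6, the main ventricular myosin of the mouse, was at 1540 FPKM or more, and Myl2, the ventricular light chain, at 854 FPKM or more. HFpEF 3 stood apart from the other libraries. On the first principal component, with 42.3% of the variance, it lay at 75.5, against 11.5 and 12.7 for HFpEF 1 and HFpEF 2 and -35.8 to -31.7 for Chow. Mitochondrially encoded genes took 7.17% of its reads, against 20.1% to 26.0% in the other 5 libraries. Log2 fold changes that were over 1.5 times smaller or of the other sign without HFpEF 3 are therefore given with that value.

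The DNA in front of the members is shown first, because interferons act on genes through the ISRE and the GAS. RefSeq promoter windows of GRCm38.p6, from 250 bases before to 50 bases after the annotated start, were matched for 27 members, and 8 had no entry (Zbp1, Rtp4, Gbp6, Usp18, Ifi27l2a, Oas2, Parp14 and Iigp1). They were searched on both strands for the ISRE letters (GAAA, any 2 bases, then GAAA) and the GAS letters TTCNNNGAA. The ISRE letters were present in 16 of the 27 members, against 3.99% of 27025 genes with a window. They were present in 10 of the 16 matched type I genes, in all 5 matched GTPases, and in 1 of the 6 class I genes (B2m). The GAS letters were present in 6 of the 27 (Gbp7, Oas1a, Bst2, Irf1, Igtp and Psmb8), against 9.55% of genes. Neither set of letters was present in 9 of the 27, and 4 of these were class I genes. The stretches below, written 5′ to 3′ along the gene, have the matched letters in capitals with 25 bases on each side, and TTTC, any 2 bases, then TTTC is the ISRE on the opposite strand. Isg15, Ifit1, Ifit3 and Oas1a show the type I arrangement, Gbp2 and Igtp the GTPases, Bst2 and Igtp the ISRE and GAS side by side, B2m the class I match, and Irf1 and Psmb8 a GAS with no ISRE.
Isg15 (chr4:156200850-156200921, minus strand): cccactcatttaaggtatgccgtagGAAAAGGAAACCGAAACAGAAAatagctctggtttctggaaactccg
Ifit1 (chr19:34640760-34640838, plus strand): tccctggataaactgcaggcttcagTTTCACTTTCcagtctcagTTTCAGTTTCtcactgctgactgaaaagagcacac
Ifit3 (chr19:34583348-34583441, plus strand): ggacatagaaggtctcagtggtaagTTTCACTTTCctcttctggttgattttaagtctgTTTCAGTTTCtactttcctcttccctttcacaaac
Oas1a (chr5:120907505-120907570, minus strand): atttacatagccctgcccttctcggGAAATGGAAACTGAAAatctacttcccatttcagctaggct
Bst2 (chr8:71537562-71537633, minus strand): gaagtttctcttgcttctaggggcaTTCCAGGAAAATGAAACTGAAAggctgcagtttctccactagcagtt
Gbp2 (chr3:142620579-142620638, plus strand): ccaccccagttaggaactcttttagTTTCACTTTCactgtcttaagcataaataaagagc
Igtp (chr11:58199486-58199556, plus strand): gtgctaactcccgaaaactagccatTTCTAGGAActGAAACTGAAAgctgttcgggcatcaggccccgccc
B2m (chr2:122147523-122147582, plus strand): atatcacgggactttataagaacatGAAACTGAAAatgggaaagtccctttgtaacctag
Irf1 (chr11:53769899-53769957, plus strand): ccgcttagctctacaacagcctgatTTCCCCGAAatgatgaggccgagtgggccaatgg
Psmb8 (chr17:34198073-34198131, plus strand): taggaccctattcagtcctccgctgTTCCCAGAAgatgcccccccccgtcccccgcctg

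In Isg15 3 ISRE matches overlapped, from 78 to 57 bases before the start. In Ifit1 and Ifit3 a pair of separate matches lay on the opposite strand. The GAS and ISRE letters overlapped in Bst2 and lay next to each other in Igtp. The Psmb8 stretch lies before a RefSeq start that is inside the gene as GENCODE draws it. A match is a string of letters and not a measured binding site. Members with the ISRE letters had a median log2 fold change of 0.40 for HFpEF over Chow, and the 11 matched members without them had 0.52.

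Across the whole set, most members were higher in HFpEF hearts, by an amount that differed widely among the 3 mice. The log2 fold change (HFpEF over Chow, on log2 of FPKM plus 0.1) was above 0 in 31 of 35 members, against 48.8% of all 14225 genes tested. Its median was 0.45 over the members and -0.012 over all genes. None of the 35 members passed an adjusted p of 0.05 in limma, where 0.0984% of all genes did (14 genes), and the lowest adjusted p of a member was 0.0814, for Ifi27l2a. At an unadjusted p under 0.05, 6 members were higher and 0 were lower, which is 6 of 35 against 10.2% of all genes higher and 13.1% lower. These 6 were Ifi27l2a, Oas1a, Zbp1, Oasl2, Psmb8 and Psmb9. Zbp1 was tested because of its level in HFpEF 2 and HFpEF 3, so its place among them is no support. In 8 members all 3 HFpEF libraries lay above all 3 Chow libraries, against 15.6% of all genes, and in none did all lie below, against 19.7%. These counts describe the list and do not test it, because it was drawn up with earlier results of these data known. No single member was called.

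**Figure D1:**
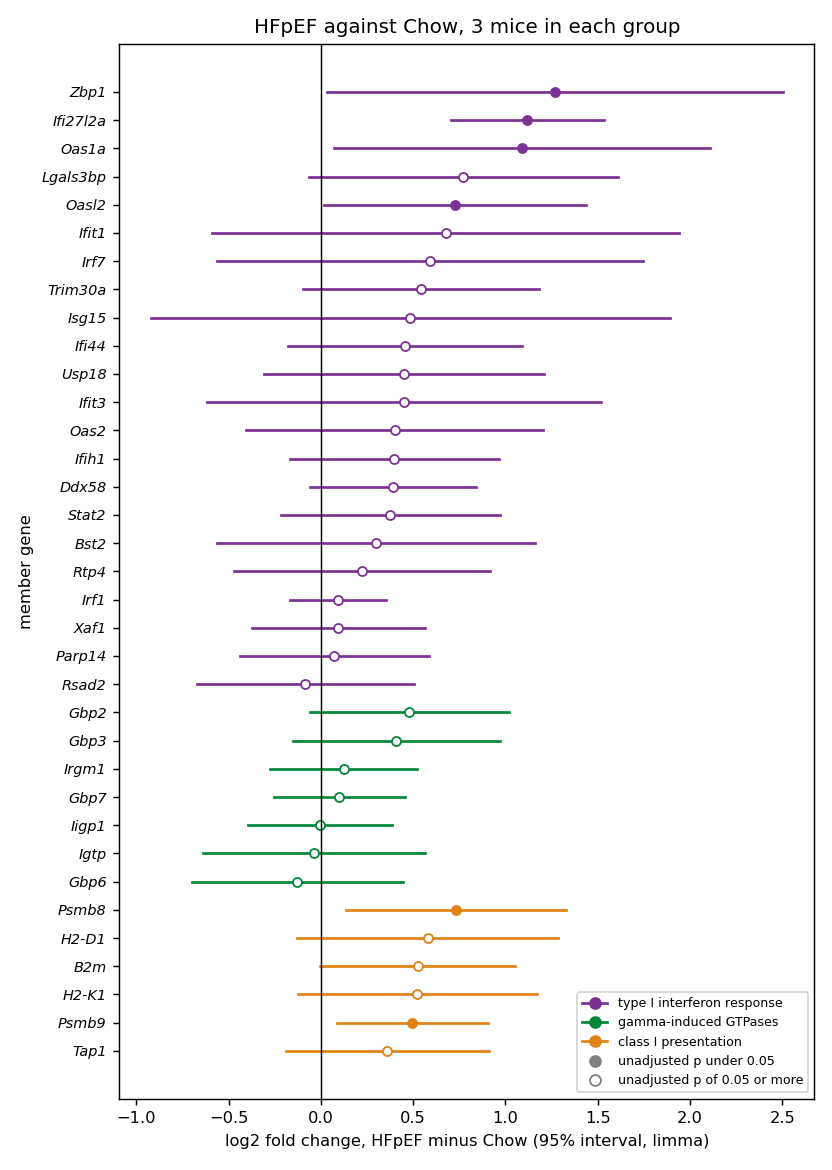
Log2 fold change of each of the 35 members (HFpEF over Chow, n = 3 mice a group) with its 95% confidence interval from limma, grouped by the 3 classes, with filled points for an unadjusted p under 0.05. Most points lie right of 0, most intervals cross 0, and the type I genes spread from -0.08 to 1.27.

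The HFpEF mice were not alike. Relative to the Chow mean, on log2 of FPKM plus 0.1, the median of the 35 members was -0.049 in HFpEF 1, 0.37 in HFpEF 2 and 0.88 in HFpEF 3. HFpEF 1 was above every Chow library in 9 members and below every Chow library in 8, against 31.9% and 34.8% of all genes. HFpEF 2 was above every Chow library in 24 members and below in 1, against 32.3% and 34.7% of all genes. HFpEF 3 was above in 33 and below in none, against 38.3% and 41.4%. HFpEF 3 was the highest HFpEF library in 31 of 35 members and HFpEF 1 the lowest in 31, where these shares over all genes were 38.5% and 28.5%. In 32 of 35 members the SD of the log2 values was larger in HFpEF than in Chow, with a median of 0.47 against 0.16, whereas over all genes the medians were 0.27 and 0.14 and the SD was larger in HFpEF in 10304 of 14225 genes.

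The set's difference thus lay mainly in HFpEF 2 and HFpEF 3. Without HFpEF 3 the median log2 fold change of the members was 0.15, and 3 members had an unadjusted p under 0.05, against 10.3% of all genes higher. In that fit of 5 libraries Ifi27l2a alone passed (log2 fold change 1.17, adjusted p 0.0245 in limma, against up to 0.285 under the other alternatives), where 2.85% of all genes were called higher. Without HFpEF 1 the median was 0.63, and 18 members had an unadjusted p under 0.05, against 11% of all genes higher, with none past the adjusted p, where 0.0211% of all genes were called higher. Without HFpEF 2 the median was 0.44 and 3 members had an unadjusted p under 0.05, against 10.4% of all genes higher, and again none passed the adjusted p, where 0.33% of all genes were called higher.

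**Figure D2:**
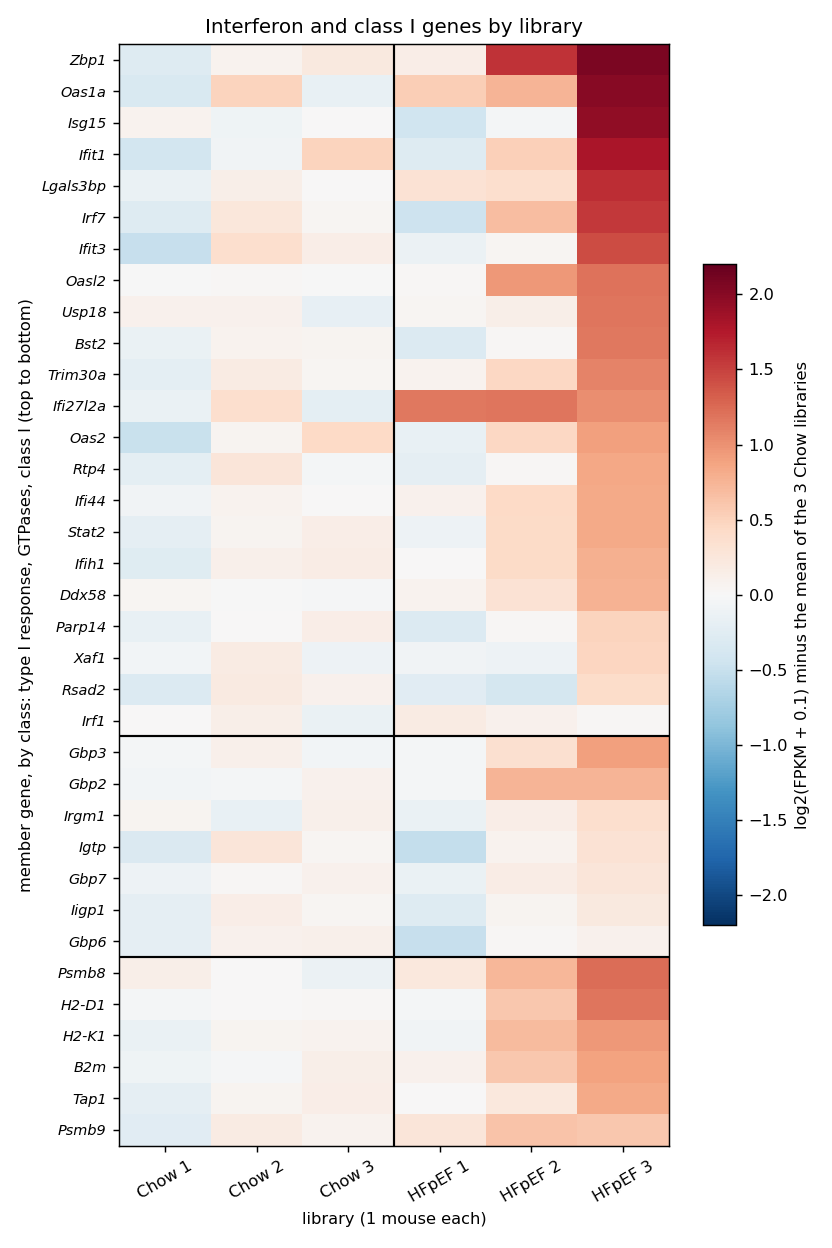
Colour gives log2(FPKM + 0.1) of each member minus its mean over the 3 Chow libraries, with 1 row per gene and 1 column per library, in the 3 classes. The HFpEF 3 column is the strongest (median 0.88), HFpEF 2 is intermediate (0.37), and HFpEF 1 (-0.049) looks like the Chow columns except in a few rows such as Ifi27l2a.

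Among the 22 type I interferon response genes the median log2 fold change was 0.45 and 21 were above 0, against 48.8% of all genes. Without HFpEF 3 the median was 0.14. Ifi27l2a, a small interferon-induced membrane protein (chr12:103442167-103443680 on GRCm38), gave the most even difference. Its level was 18.8, 27.1 and 18.0 FPKM in Chow and 47.1, 47.5 and 42.5 FPKM in HFpEF. The groups were far apart, and the HFpEF mice lay close together, with HFpEF 3 the lowest of them. Its mean was 2.15 times higher in HFpEF (45.7 ± 2.8 against 21.3 ± 5.00 FPKM, SD, n = 3), with a log2 fold change of 1.12 (95% confidence interval 0.70 to 1.54) and an adjusted p of 0.0814 in limma, which missed the threshold. In HFpEF 1 its log2 ratio to the Chow mean was 1.16, the highest of any member in that mouse, followed by Oas1a at 0.53.

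The oligoadenylate synthetases make a messenger that switches on RNase L when viral RNA is present. Oas1a was at 1.01, 1.85 and 1.14 FPKM in Chow and at 1.92, 2.22 and 5.44 FPKM in HFpEF. The groups did not overlap, but HFpEF 1 lay only just above Chow 2, and HFpEF 3 was far above the rest. Its log2 fold change was 1.09 (SE 0.43, adjusted p 0.197), or 0.64 without HFpEF 3, and 40.9% of its transcript windows of 100 bases also occur in Oas1g, so reads could have been shared between these genes. Oasl2, a synthetase-like protein with a ubiquitin-like tail, was at 2.37, 2.43 and 2.39 FPKM in Chow and at 2.46, 4.75 and 5.60 FPKM in HFpEF. HFpEF 1 was at the Chow level, and HFpEF 2 and HFpEF 3 were well above it (log2 fold change 0.73, SE 0.30, adjusted p 0.207). Oas2 overlapped between the groups, at 2.08 to 4.05 FPKM in Chow and 2.64 to 5.64 FPKM in HFpEF (log2 fold change 0.40, or 0.15 without HFpEF 3).

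Zbp1, a sensor of Z-form nucleic acid that can start necroptosis, had the highest log2 fold change of the set. It was at 0.338, 0.459 and 0.515 FPKM in Chow and at 0.491, 1.51 and 2.13 FPKM in HFpEF. HFpEF 1 lay inside the Chow range, and the other HFpEF mice were above it. The log2 fold change was 1.27 (95% confidence interval 0.033 to 2.502, adjusted p 0.207), and rested on 17 to 22 recovered reads per Chow library and 24, 90 and 145 in HFpEF. Only 1 Chow library reached the minimum of 0.5 FPKM for testing. Zbp1 was thus tested because of its level in HFpEF 2 and HFpEF 3, and its rank is no support.

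Several classical markers were high in HFpEF 3 alone. Isg15, a ubiquitin-like protein that is attached to other proteins, was at 3.34, 2.93 and 3.17 FPKM in Chow and at 2.29, 3.04 and 12.4 FPKM in HFpEF. HFpEF 1 was the lowest of the 6 libraries, HFpEF 2 lay inside the Chow range, and only HFpEF 3 was higher. The log2 fold change of 0.49 (adjusted p 0.632) was -0.24 without HFpEF 3. Bst2 (tetherin), which holds budding viruses on the cell and was the most abundant type I member with Ifi27l2a, behaved alike: it was at 21.5, 25.01 and 24.9 FPKM in Chow and at 19.4, 24.3 and 53.2 FPKM in HFpEF. Its log2 fold change of 0.30 (adjusted p 0.631) was -0.13 without HFpEF 3. Usp18, the protease that takes Isg15 off its targets, was at 1.48 to 1.81 FPKM in Chow and at 1.76, 1.86 and 3.93 FPKM in HFpEF, and its log2 fold change of 0.45 was 0.092 without HFpEF 3.

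Ifit1 and Ifit3 bind foreign RNA and sit together on chromosome 19. Ifit1 was at 1.69, 2.15 and 3.24 FPKM in Chow and at 1.85, 3.31 and 8.19 FPKM in HFpEF, and Ifit3 at 4.15, 7.67 and 6.59 FPKM in Chow and at 5.42, 6.16 and 16.2 FPKM in HFpEF. Both groups overlapped in each gene, and HFpEF 3 was the highest. Of the Ifit3 windows, 31.7% also occur in Ifit3b, so its reads could have been shared. Without HFpEF 3 the log2 fold change of Ifit1 went from 0.68 to 0.12 and that of Ifit3 from 0.45 to -0.040.

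The transcription factors among the members differed from each other. Irf7, the factor that amplifies type I interferon, was at 2.68, 3.93 and 3.42 FPKM in Chow and at 2.37, 5.36 and 9.90 FPKM in HFpEF. Stat2, which acts at the ISRE, was at 3.19, 3.84 and 4.09 FPKM in Chow and at 3.40, 4.96 and 6.61 FPKM in HFpEF. In both genes HFpEF 2 and HFpEF 3 were above Chow and HFpEF 1 was not. Their log2 fold changes were 0.59 and 0.38, and without HFpEF 3 they were 0.11 and 0.15. Irf1, a factor induced most strongly by interferon gamma, was nearly flat at 7.10 ± 0.647 FPKM in Chow and 7.58 ± 0.418 FPKM in HFpEF (SD, n = 3; log2 fold change 0.09, 95% confidence interval -0.17 to 0.36).

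**Figure D3:**
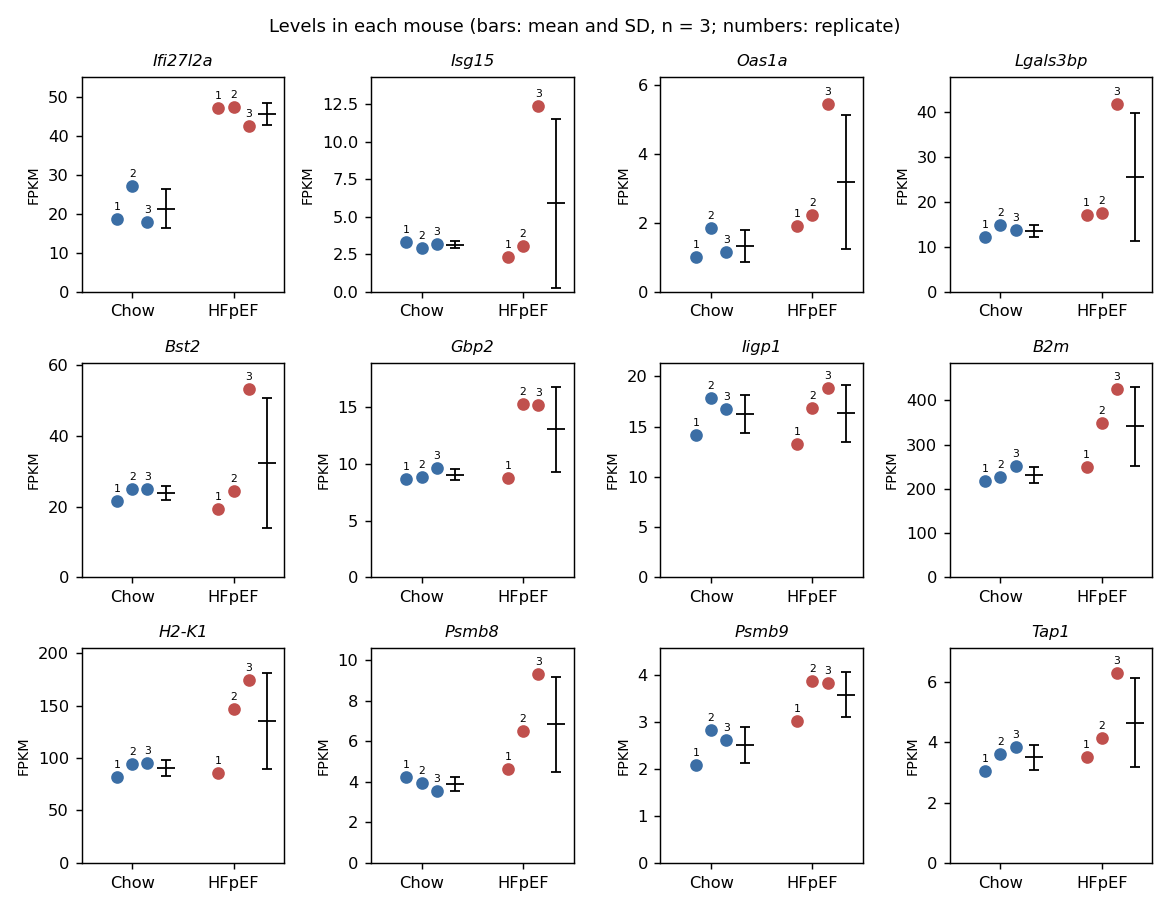
FPKM of 12 members in each mouse, with the mean and SD of each group of 3 beside the points and replicate numbers above them. Ifi27l2a separates the groups in every mouse, Isg15 and Bst2 are high in HFpEF 3 alone (12.4 and 53.2 FPKM), and Gbp2, B2m and H2-K1 are high in HFpEF 2 and HFpEF 3.

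The sensors Ddx58 (RIG-I) and Ifih1 (MDA5), which detect viral RNA in the cytosol, had log2 fold changes of 0.39 and 0.40. Ddx58 was at 2.85 to 3.01 FPKM in Chow and at 3.10, 3.67 and 5.03 FPKM in HFpEF, so that its groups did not overlap (adjusted p 0.260). Ifi44 and the secreted galectin ligand Lgals3bp also did not overlap. Lgals3bp was at 12.2, 14.8 and 13.7 FPKM in Chow and at 17.0, 17.5 and 42.0 FPKM in HFpEF, a small step in HFpEF 1 and HFpEF 2 and a large one in HFpEF 3 (log2 fold change 0.77, SE 0.35, adjusted p 0.239). The log2 fold change of Trim30a, a negative regulator of inflammatory signalling, was 0.54 (adjusted p 0.268). Without HFpEF 3 the log2 fold changes were 0.20 for Ddx58, 0.21 for Ifih1, 0.27 for Ifi44, 0.35 for Lgals3bp and 0.27 for Trim30a.

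The lowest type I member was Rsad2 (viperin), an enzyme that makes a chain-terminating nucleotide. It was at 3.14, 4.44 and 4.16 FPKM in Chow and at 3.23, 2.93 and 5.15 FPKM in HFpEF. The groups overlapped, with HFpEF 2 the lowest and HFpEF 3 the highest of all libraries, and the log2 fold change was -0.08 (95% confidence interval -0.67 to 0.50), or -0.32 without HFpEF 3. Xaf1, Parp14 and Rtp4 had log2 fold changes of 0.09, 0.07 and 0.22 with overlapping groups, and each was below 0 without HFpEF 3. Xaf1 was also below 0 after quantile normalization.

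The GTPases induced by interferon gamma attack the vacuoles in which intracellular microbes live. As a class they differed little. The median log2 fold change was 0.099, and 4 of 7 were above 0, against 48.8% of all genes. None had an unadjusted p under 0.05, where 10.2% of all genes were higher and 13.1% lower. The groups overlapped in all 7, where 15.6% of all genes had every HFpEF library above Chow and 19.7% below. Gbp2 (chr3:142620602-142638008), a guanylate-binding protein, was at 8.71, 8.81 and 9.63 FPKM in Chow and at 8.75, 15.3 and 15.2 FPKM in HFpEF. HFpEF 1 was at the Chow level, whereas HFpEF 2 and HFpEF 3 were equally high. Its log2 fold change of 0.48 (SE 0.23, adjusted p 0.253) was the highest of the class, followed by 0.41 for its neighbour Gbp3. Gbp7, from the same cluster on chromosome 3, had 0.10. Without HFpEF 3 the values of Gbp3 and Gbp7 were 0.16 and 0.015.

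The immunity-related GTPases Iigp1, Igtp and Irgm1 act on the same vacuoles. Iigp1, the most abundant GTPase of the set, was at 14.2, 17.9 and 16.8 FPKM in Chow and at 13.3, 16.8 and 18.8 FPKM in HFpEF. Its groups overlapped almost wholly (16.3 ± 1.90 against 16.3 ± 2.81 FPKM, SD, n = 3), and the 95% confidence interval of its log2 fold change ran from -0.39 to 0.38. Igtp and Irgm1 had log2 fold changes of -0.04 and 0.12, and the value of Igtp, like that of Iigp1, was above 0 after quantile normalization. Without HFpEF 3 Irgm1 had -0.0012. Gbp6 had the lowest value of the whole set at -0.13, from 0.979, 1.23 and 1.24 FPKM in Chow and 0.776, 1.17 and 1.23 FPKM in HFpEF, and without HFpEF 3 it was -0.24. Gbp6 shares 51.3% of its windows with other genes (Gm43302 and Gbp10), so its level is uncertain. Of the other members not mentioned so far for this, Rtp4 shared 11.2% and Gbp7 10.2% of their windows with another gene, and 24 members shared none. Without HFpEF 3 the median of the class was -0.0012.

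The class I presentation genes shared a direction. All 6 had a log2 fold change above 0, against 48.8% of all genes, and the values ran from 0.36 to 0.73 with a median of 0.52. HFpEF 2 and HFpEF 3 were above every Chow library in all 6, against 32.3% and 38.3% of all genes. None passed the adjusted p, and without HFpEF 3 the median was 0.33, whereas after quantile normalization it was 0.75. B2m, the light chain of every class I molecule (chr2:122147686-122153083), was at 218, 226 and 252 FPKM in Chow and at 248, 349 and 426 FPKM in HFpEF. HFpEF 1 lay inside the Chow range and the other HFpEF mice were above it, with a log2 fold change of 0.52 (95% confidence interval -0.0031 to 1.05, adjusted p 0.216). That value was 0.35 without HFpEF 3 and 0.99 after quantile normalization (adjusted p 0.194).

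The heavy chains followed B2m library by library. H2-D1 was at 97.6, 102 and 102 FPKM in Chow and at 97.6, 152 and 227 FPKM in HFpEF. H2-K1 was at 81.8, 94.2 and 94.9 FPKM in Chow and at 85.3, 146 and 175 FPKM in HFpEF. In both, HFpEF 1 was at the Chow level and HFpEF 3 was the highest, and the log2 fold changes were 0.58 (SE 0.30, adjusted p 0.283) and 0.52 (SE 0.27, adjusted p 0.286). They were 0.28 and 0.31 without HFpEF 3, and 0.92 and 0.81 after quantile normalization. These 3 genes were by far the most abundant members, with 2279 to 11327 recovered reads each per library.

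Psmb9, Tap1 and Psmb8 lie next to each other on chromosome 17, from 34181987 to 34201454. Psmb8, a catalytic subunit of the immunoproteasome, was at 4.26, 3.92 and 3.57 FPKM in Chow and at 4.65, 6.51 and 9.35 FPKM in HFpEF. The groups did not overlap, with HFpEF 1 just above Chow 1 (log2 fold change 0.73, 95% confidence interval 0.14 to 1.33, adjusted p 0.166; 0.48 without HFpEF 3). Psmb9, the partner subunit, was at 2.07, 2.82 and 2.62 FPKM in Chow and at 3.02, 3.87 and 3.82 FPKM in HFpEF. Its groups did not overlap either, and its HFpEF mice were closer together (log2 fold change 0.50, 95% confidence interval 0.087 to 0.91, adjusted p 0.169). Tap1, the transporter subunit between them, was at 3.04, 3.63 and 3.85 FPKM in Chow and at 3.51, 4.14 and 6.31 FPKM in HFpEF, with a log2 fold change of 0.36, or 0.12 without HFpEF 3, and overlapping groups. Psmb9 and Tap1 share 212 exon bases on opposite strands, and 14.7% of the exon bases of Psmb8 lie in a gene on the opposite strand. Whether the counting used strand was not given in the sources used here.

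The constitutive proteasome subunits were lower in HFpEF. Psmb5, Psmb6 and Psmb7, the subunits that the immunoproteasome subunits replace, had log2 fold changes of -0.47, -0.51 and -0.85. In each, every HFpEF library lay below every Chow library, against 19.7% of all genes. The adjusted p values of these subunits were 0.120, 0.106 and 0.103. After quantile normalization the log2 fold changes of Psmb5 and Psmb6 were -0.24 and -0.33. Without HFpEF 3 Psmb6 and Psmb7 passed, at adjusted p values of 0.0261 and 0.0172 in limma. In that fit 763 of 14225 genes were called lower. The highest adjusted p values of Psmb6 and Psmb7 over the alternatives were 0.353 and 0.349. The ratio of Psmb8 to Psmb5, on FPKM and therefore per exon length, was 0.0552, 0.0461 and 0.0450 in Chow and 0.0876, 0.1001 and 0.164 in HFpEF. The ratio of Psmb9 to Psmb6 was 0.0415, 0.0531 and 0.0460 in Chow and 0.0762, 0.102 and 0.110 in HFpEF. Both ratios were higher in every HFpEF mouse, HFpEF 1 included, than in any Chow mouse (exact two-sided permutation test, p = 0.1 each, the smallest that 3 against 3 allows). In each ratio the numerator was higher and the denominator lower in every HFpEF mouse.

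Psmb10, the third inducible subunit, was more abundant than Psmb8 and Psmb9 in every library and did not share their direction. It was at 26.5, 31.1 and 24.1 FPKM in Chow and at 17.9, 20.7 and 26.1 FPKM in HFpEF. Its ratio to Psmb7 was 1.13, 1.14 and 1.02 in Chow and 1.201, 1.28 and 2.46 in HFpEF, which was again above Chow in every mouse (exact permutation p = 0.1). Here only the denominator differed in that direction, since the log2 fold change of Psmb10 itself was -0.35 (adjusted p 0.272).

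**Figure D4:**
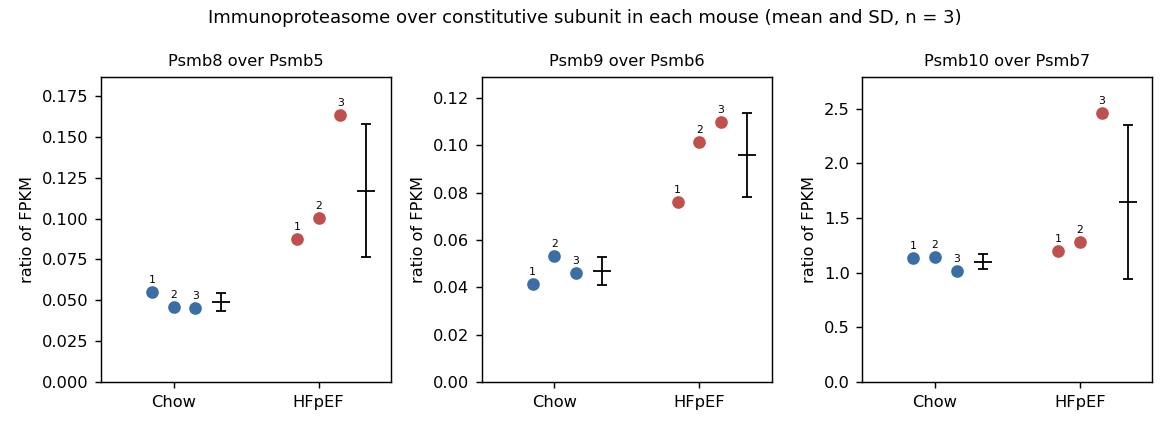
Ratios of inducible to constitutive catalytic proteasome subunits (FPKM over FPKM) in each mouse, for Psmb8 to Psmb5, Psmb9 to Psmb6 and Psmb10 to Psmb7. All 3 HFpEF mice lie above all 3 Chow mice in each panel, with HFpEF 3 highest, at 0.164, 0.110 and 2.46.

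The rest of the pathway was read from 7 lists with 178 genes that are not members, of which 141 were tested. None had an adjusted p under 0.05, and at an unadjusted p under 0.05 19 were higher and 10 were lower, against 10.2% and 13.1% of all genes. Their median log2 fold change was 0.22, and without HFpEF 3 it was 0.076. The interferons themselves were almost absent: of the 9 interferon genes listed, 7 had 0 recovered reads in all 6 libraries, Ifnb1 had 2 reads in HFpEF 3 alone and Ifng had 1 read in HFpEF 3 alone. A count of 0 allows up to 3 reads in a library, so interferon RNA was not detectable at this depth in nearly all libraries. The type I receptor chains Ifnar1 and Ifnar2 had log2 fold changes of 0.26 and 0.10, and Ifngr1, the ligand-binding chain for interferon gamma, had 0.12. Without HFpEF 3 Ifnar1 had 0.082 and Ifngr1 had 0.079. Ifngr2, its signalling partner, was at 58.8, 62.0 and 54.0 FPKM in Chow and at 41.2, 40.0 and 28.0 FPKM in HFpEF. It was lower in every HFpEF mouse (log2 fold change -0.70, SE 0.17, adjusted p 0.118). Without HFpEF 3 it passed at an adjusted p of 0.0189 in limma, where 763 of 14225 genes were called lower. Its adjusted p was up to 0.353 under the other alternatives. Il10rb, a chain shared by the interferon lambda and interleukin receptors, had -0.53 (adjusted p 0.207), or -0.27 without HFpEF 3.

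Of 15 signalling genes, 3 were higher and 1 was lower at an unadjusted p under 0.05, against 10.2% and 13.1% of all genes. Stat3 was at 13.0, 12.7 and 13.9 FPKM in Chow and at 18.0, 17.3 and 18.4 FPKM in HFpEF, an even difference with no overlap (log2 fold change 0.43, SE 0.089, adjusted p 0.103). It passed without HFpEF 3, at an adjusted p of 0.0310 in limma, with values up to 0.353 under the other alternatives. In the fit without HFpEF 3, 2.85% of all genes were called higher. Socs3, the feedback inhibitor that Stat3 induces, was at 1.52 to 2.21 FPKM in Chow and at 2.62, 5.84 and 16.6 FPKM in HFpEF (log2 fold change 1.67, adjusted p 0.185; 0.98 without HFpEF 3). The phosphatase Ptpn1 had 0.53, or 0.32 without HFpEF 3, and Jak1 had -0.31. Irf9, which acts at the ISRE with Stat2, had 0.13 (adjusted p 0.580), or 0.035 without HFpEF 3.

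At an unadjusted p under 0.05, 10.2% of all genes were higher and 13.1% were lower. Of 19 tested sensor and adaptor genes, 4 were higher and none was lower at that threshold. They were Tlr8, an endosomal RNA receptor (1.02), Irf5, a factor downstream of such receptors (0.93), Dhx58, a regulator of the RNA sensors (0.84), and the adaptor Myd88 (0.46). Tlr8 was at 0.568, 0.594 and 0.415 FPKM in Chow, so it met the minimum of 3 libraries only through HFpEF. Its place among the higher genes is no support. Irf3, the factor that starts interferon beta transcription and is regulated by phosphorylation, had 0.15, or 0.082 without HFpEF 3. Against 10.2% and 13.1% of all genes, 10 of 64 other interferon-induced genes tested were higher and 2 were lower. Apol9b (1.79), Slfn8 (1.18), Oasl1 (1.15), Epsti1 (1.08) and Gm4951 (0.98) were the highest of these, and Cxcl9, a T cell chemokine induced by interferon gamma, had the lowest value. Apol9b was below 0.5 FPKM in every Chow library, with 2 to 5 recovered reads, and was tested only because of its level in HFpEF, so its place among the higher genes is no support. Oasl1 reached 0.5 FPKM in 1 Chow library, so its place there is no support either. Epsti1 (0.484, 0.955 and 0.677 FPKM in Chow) and Gm4951 (0.637, 0.451 and 0.844 FPKM) also met the minimum only through HFpEF libraries. The places of Epsti1 and Gm4951 are no support. Cxcl9 was at 2.17, 3.25 and 1.67 FPKM in Chow and at 1.32, 1.47 and 1.13 FPKM in HFpEF, lower in every HFpEF mouse (log2 fold change -0.77, adjusted p 0.166).

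At an unadjusted p under 0.05, where 10.2% of all genes were higher and 13.1% lower, Gbp8 alone was called of 10 other GTPases tested. Its log2 fold change was 1.76, from 0.0720 to 0.265 FPKM in Chow to 0.608 to 0.943 FPKM in HFpEF. It too reached the minimum for testing in HFpEF libraries only, so that its count among the higher genes is no support. Among 24 other class I genes tested, Tapbp (tapasin, which loads peptide onto class I) was higher at 0.42, and the proteasome activator subunits Psme1 and Psme3 were lower at -0.44 and -0.28. Tap2, the partner of Tap1, had 0.19, or 0.040 without HFpEF 3, and Nlrc5, the transactivator of class I genes, had 0.27. Nlrc5 was at 0.910, 1.24 and 0.964 FPKM in Chow and at 0.901, 1.14 and 1.93 FPKM in HFpEF, and without HFpEF 3 its log2 fold change was -0.021.

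Markers of other cell types differed along with these members. The summed FPKM of 10 macrophage markers was 240 to 302 in Chow and 297, 405 and 963 in HFpEF 1, HFpEF 2 and HFpEF 3, with none of the 10 at 0. Lyz2 made up much of that sum, at 110 to 147 FPKM in Chow and 139, 179 and 534 FPKM in HFpEF. All 10 had a log2 fold change above 0, against 48.8% of all genes. In 4 all HFpEF libraries lay above all Chow libraries, against 15.6% of all genes. HFpEF 3 was the highest of the HFpEF mice in 9 of the 10, against 38.5% of all genes. The exception was Cd163, at 6.82, 10.1 and 8.06 FPKM in HFpEF. The 5 general leukocyte markers summed to 22.5 to 31.5 in Chow and 29.2, 37.6 and 88.2 in HFpEF. HFpEF 3 thus had the highest sum of the HFpEF libraries in both lists, and it was the highest HFpEF library in 31 of the 35 members. In bulk tissue, fewer or more cells of a type and less or more RNA per cell cannot be told apart, and the part of these markers in the members' differences was not tested.

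Other leukocyte lists gave smaller sums in most libraries. The 11 T and NK cell markers summed to 1.12 to 2.44 in Chow and 1.17, 2.01 and 4.03 in HFpEF, and the 3 markers of plasmacytoid dendritic cells to 0.0728 to 0.263 in Chow and 0.549, 0.577 and 0.474 in HFpEF. The 8 neutrophil markers summed to 1.40 to 4.10 and to 1.35, 2.54 and 4.17, with 3 of them at 0 in every library, among them Ly6g. The 6 B cell markers summed to 10.6 to 18.8 and to 11.4, 242 and 30.8, so that HFpEF 2 stood out there and HFpEF 3 did not. The 6 conventional dendritic cell markers summed to 5.24 to 5.46 and 5.53 to 6.12. Zbtb46 made up much of that sum, and Flt3 and Itgae, both under 0.4 FPKM in all libraries, were above Chow in every HFpEF mouse.

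Markers of resident heart cells differed too. The 7 fibroblast markers summed to 182 to 216 in Chow and 363, 375 and 3712 in HFpEF. The 8 endothelial markers summed to 239 to 267 and 199 to 206. The 8 ventricular cardiomyocyte markers summed to 15123 to 16643 in Chow and 10740, 11367 and 7235 in HFpEF. All 8 were lower in every HFpEF mouse, as were 19.7% of all genes, among them Psmb5, Psmb6, Psmb7 and Ifngr2. The median log2 fold change of the 8 cardiomyocyte markers was -0.68, or -0.41 without HFpEF 3. After quantile normalization it was only -0.11, so its size depended on the normalization. Adipocyte markers were nearly absent in Chow apart from Fabp4. Cfd was listed at 0 in every Chow library and at 35.3, 37.8 and 22.9 FPKM in HFpEF, and Adipoq at 0 in Chow and at 6.69, 6.24 and 1.91 FPKM in HFpEF. Of 6 adipocyte markers tested, Cfd, Car3, Adipoq and Cidec rose (limma, lowest adjusted p 9.49e-05), which makes 4 of the 14 genes called in all, and they were lowest in HFpEF 3 among the HFpEF mice. These 4 entered the test through their level in HFpEF. The summed adipocyte FPKM was 84.3 to 94.9 in Chow, nearly all of it Fabp4, and 106 to 152 in HFpEF, where Fabp4 was at 60.5, 64.0 and 69.8. Mesothelial markers summed to 17.4 to 25.6 and 33.9, 117 and 49.2. Red blood cell markers ranged from 280 to 1591 in Chow and from 478 to 1813 in HFpEF. The part of each of these lists in the members' differences was not tested.

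**Figure D5:**
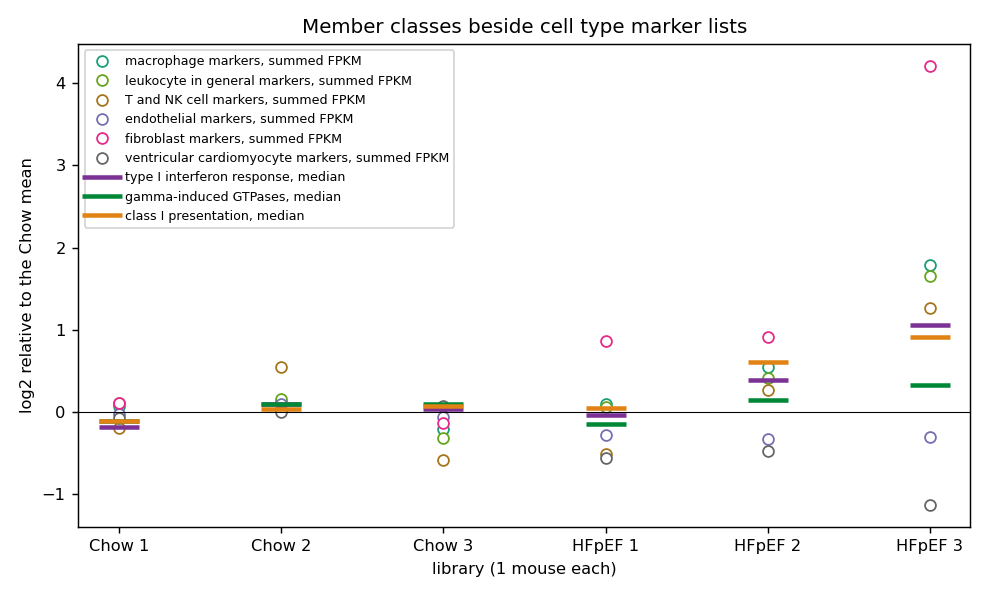
Log2 level relative to the Chow mean in each library, for the summed FPKM of 6 marker lists (circles) and for the median member of each class (bars). HFpEF 3 has the highest macrophage, leukocyte and fibroblast sums (963, 88.2 and 3712 FPKM) and the highest class medians, and the cardiomyocyte sum is lower in every HFpEF mouse (7235 to 11367 FPKM) than in Chow.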

How the data were processed

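RNA sequencing of left ventricular myocardium from 3 Chow and 3 HFpEF mice was examined, and each library's group and replicate number came from its label. The authors used HISAT2 for alignment and featureCounts for read numbers per gene, and deposited FPKM for 54532 gene identifiers. The submitters' processing notes name GRCm38 (mm10), and the annotation, the formula of FPKM and the use of strand were not given in the sources used here. Symbols, coordinates and exon lengths came from GENCODE release M21 (54495 identifiers matched). FPKM times exon length was a whole multiple of 1 step per library for 96.1% to 96.2% of values above 0 (relative tolerance 1e-06), which gave the read number of each gene. Intervals of these reads cover counting error only.

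FPKM was scaled by the median of ratios (factors 1.003 to 1.006), 0.1 was added, and log2 values of the 14225 genes that reached an FPKM of 0.5 in 3 or more libraries were fitted with limma (lmFit, eBayes with trend and robust options). P values were adjusted by Benjamini-Hochberg over all genes tested, and 0.05 was the threshold. For ratios of proteasome subunits an exact permutation test (two-sided) was used, and 0.1 is the lowest p it can give here. The fit was checked on simulated data. At an adjusted p of 0.05 it recovered 22 of 100 genes with a log2 fold change of 1 in either direction. It recovered 94 of 100 genes with a log2 fold change of 2. A change of 1 was thus mostly missed.

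The members, the 7 pathway lists and the 13 marker lists were chosen with earlier results of these data known. By rule, values in every library were given for members with an unadjusted p under 0.05 and, in each class, for the 2 most abundant members and those with the highest and lowest log2 fold change. Of the pathway lists the rule took up to 6 genes per list with an unadjusted p under 0.05 and a set of core genes. Other members shown by library were added after their values were seen. Alternatives were quantile normalization, unscaled FPKM, a pseudocount of 1 or of 0.01, testing without a filter or from an FPKM of 1, eBayes without its trend and robust options, voom on recovered reads, a block for the replicate number, and each library left out in turn. Same-numbered libraries did not deviate together (correlations of -0.041, -0.073 and -0.057). This gave no sign that the numbers pair mice, but with 3 libraries a group it cannot exclude it. Fits were made in limma 3.58.1 under R 4.3.3, and tables and plots in Python 3.11.15 (pandas 2.3.3, matplotlib 3.10.9, scipy 1.17.1, numpy 2.4.6). Proteomics and other assays of the study were not analysed here. A result for 1 gene covered by the rule is not reported here.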

Additional observations from a re-analysis of the deposited data

How the results depend on the processing

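Of 523 member values under the alternatives, 502 kept their direction, and 24 of 35 members kept it throughout. With 1 library left out, the log2 fold change ran from -0.040 to 0.74 for Ifit3, -0.24 to 0.95 for Isg15, -0.13 to 0.59 for Bst2, -0.092 to 0.20 for Xaf1, -0.14 to 0.26 for Parp14, -0.089 to 0.43 for Rtp4, -0.0012 to 0.26 for Irgm1 and, outside the set, -0.021 to 0.49 for Nlrc5. It ran from -0.32 to 0.073 for Rsad2, -0.24 to 0.061 for Gbp6, -0.22 to 0.20 for Igtp and -0.11 to 0.14 for Iigp1. In all 12 of these genes the lowest value was the one without HFpEF 3. After quantile normalization Xaf1 was at -0.017, Igtp at 0.00056 and Iigp1 at 0.081, and with voom Igtp was at 0.0018.

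Leaving out 1 library moved the count of members with an unadjusted p under 0.05 from 6 to between 2 (without Chow 1 or Chow 3) and 18 (without HFpEF 1), and it was 3 without Chow 2, HFpEF 2 or HFpEF 3. The count past the adjusted p was 0 to 1 (Ifi27l2a without HFpEF 3). Over all genes, the 14 past the adjusted p became 3 with a pseudocount of 1, 5 with 0.01, 32 without the trend and robust options, 0 with voom and 2 with the replicate block, and 2 to 1169 with 1 library left out, where the highest was without HFpEF 3. With voom, all tested genes with unadjusted p under 0.05 numbered 3350, and 6 of them were members. Genes with an unadjusted p under 0.05 with 1 library left out ran from 1949 to 3571, and those of the pathway lists from 15 to 47 (29 with all libraries). With the replicate number as a block, 9 members had an unadjusted p under 0.05 and none passed the adjusted p, but the labels tie such samples by that number alone. An FPKM minimum of 1 removed Ifi44 and Zbp1 from the test. The causes of these shifts were not tested. Low members such as Zbp1 and Isg15 rest on few reads.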

Other observations

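The Chow mice also differed in these genes. Chow 1 was the lowest Chow library in 26 of the 35 members, Chow 3 in 7 and Chow 2 in 2, whereas over all 14225 genes tested Chow 1 was the lowest in 4588. The median of the members relative to the Chow mean, on log2 of FPKM plus 0.1, was -0.15 in Chow 1, 0.075 in Chow 2 and 0.050 in Chow 3. The type I median of Chow 1 was -0.18. These differences were small beside those among the HFpEF mice. Summed over the 6 class I presentation genes, the level was 406, 432 and 459 FPKM in Chow and 442, 662 and 847 FPKM in HFpEF, so that HFpEF 1 lay inside the Chow range.

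Several interferon-induced genes were too low to be tested, and they were named after their values were seen. Mx1, an antiviral GTPase, had 16, 10 and 4 recovered reads in Chow and 17, 23 and 155 in HFpEF. Oas3 had 10, 14 and 5 reads in Chow and 11, 19 and 106 in HFpEF, and Slfn4 had 1, 6 and 1 in Chow and 4, 5 and 75 in HFpEF. Cxcl10, a chemokine of the same family as Cxcl9, had 11, 9 and 9 reads in Chow and 14, 23 and 66 in HFpEF. HFpEF 3 was the highest library in each. These read numbers were not scaled between libraries. HFpEF 3 had 15196287 recovered reads in all, fewer than HFpEF 2 with 16027084. The depth of 19316914 that its FPKM implies, the highest of all libraries, includes the further scaling. Cgas, the DNA sensor, had 10, 15 and 10 reads in Chow and 35, 29 and 89 in HFpEF, and was higher in every HFpEF mouse.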
